A study of Mus musculus with 6 samples.

Results

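The genes described here are *Zfp36*, *Zfp36l1*, *Zfp36l2*, *Elavl1*, *Hnrnpd*, *Khsrp*, *Pum2*, *Tia1* and *Tial1*, which encode proteins that bind regulatory elements in mRNA 3′ untranslated regions. They were taken by name, as all probe sets that the platform annotation assigns to exactly 1 of these symbols. This gave 33 probe sets of 9 genes, out of 34945 probe sets of 18193 genes with 1 symbol and 45037 probe sets on the array. Expression was measured in primary mouse embryonic fibroblasts (MEFs) from mice with floxed CNOT3 alleles. Control MEFs received mock retrovirus, and CNOT3-depleted MEFs (CNOT3KD) received retrovirus expressing Cre. All cultures were selected in puromycin for 2 days. Each was examined untreated (0 h) and after 6 and 12 h of actinomycin D (Act. D), a transcriptional inhibitor. The labels give the genotype of the control as wild type, while the methods describe floxed cells without Cre. Each of the 6 conditions was 1 array, so no value below has a replicate error and no difference has a test. The sources used here do not give the number of embryos behind each culture.

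AU-rich elements are stretches of AUUUA repeats in the 3′ untranslated regions of many short-lived mRNAs, such as those of cytokines and early response genes. Tristetraprolin (TTP, from *Zfp36*) and its relatives from *Zfp36l1* and *Zfp36l2* bind these elements through a pair of zinc fingers and recruit the CCR4-NOT deadenylase, which shortens the poly(A) tail. AUF1 (from *Hnrnpd*) and KSRP (from *Khsrp*) also promote decay, HuR (from *Elavl1*) generally protects its targets, and TIA-1 and TIAR (from *Tia1* and *Tial1*) mainly repress translation. PUM2 recognises the Pumilio element, which differs from the AU-rich element, but it too recruits CCR4-NOT. Several of these mRNAs carry AU-rich elements of their own, and TTP is known to act on its own mRNA. The study had tested binding of Zfp36L1 to 3′ untranslated regions *in vitro*, and the arrays show how the mRNAs of such adaptors behaved when CNOT3 was depleted.

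MAS5 gave a linear signal for each probe set, with nearly the same trimmed mean in every array, so the signal left after Act. D is relative to the mRNA that remained and can exceed 100%. Each gene was read at its brightest probe set, and all 9 of these lay at or above the median 0 h signal of 72.9. For this the 0 h signal was the geometric mean of both cultures. Of the other probe sets, 17 were also at or above it and 7 were below it, with signals between 1 and 89.6. The *Cnot3* signal at 0 h was 436 in control and 239.6 in CNOT3KD MEFs, while a dimmer *Cnot3* probe set had 204 and 227. The sources used here do not give where either probe set lies relative to the deleted exons, so these values check the labels only in part. All 14 fibroblast markers were at or above the median signal, with a summed signal at 0 h of 155564 in control and 170008 in CNOT3KD MEFs. The summed signal of 13 leukocyte markers was 2690 and 3963 at 0 h, and that of 12 epithelial markers was 1462 and 2937. Of these, 3 leukocyte markers were near background in both arrays, as were 4 and 3 of the epithelial markers. Of the 5 epithelial markers at or above the median signal, 4 were more than 1.5-fold higher in CNOT3KD MEFs at 0 h. These were *Krt8*, *Krt18*, *Krt19* and *Dsp*, or 80% against 12.4% of all genes at or above the median signal, while *Epcam* was 1.06-fold higher. The epithelial markers below the median signal went both ways. Of the 8 leukocyte markers at or above the median signal, 3 were more than 1.5-fold higher in CNOT3KD MEFs at 0 h. These were *Cd68*, *Cd14* and *Tyrobp*, or 37.5%, and the leukocyte markers below the median signal went both ways. Over all times the epithelial sum was between 1297 and 1462 in control and between 2937 and 3467 in CNOT3KD MEFs, and the leukocyte sum between 2690 and 5650 and between 3963 and 5457. The sum of 12 endothelial markers was 1291 and 1656, with 3 near background in both. In such cultures fewer cells of a type and less RNA per cell cannot be told apart, and the part of other cell types in the results below was not tested.

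*Zfp36l2* was among the fastest-disappearing mRNAs of control MEFs, and it disappeared more slowly in CNOT3KD MEFs. Its signals in control MEFs were 8171, 717 and 815 at 0, 6 and 12 h, and those in CNOT3KD MEFs were 5281, 1467 and 987. CNOT3KD MEFs were thus 1.55-fold lower than control at 0 h but 2.05-fold higher at 6 h and 1.21-fold higher at 12 h, so the order of the cultures turned over during Act. D. Control MEFs kept 8.77% and 9.97% of the signal, against 27.8% and 18.7% in CNOT3KD MEFs. Only 3.30% of the 11062 genes at or above the median signal had a smaller fraction left in control MEFs at 6 h, and 6.08% at 12 h. In CNOT3KD MEFs these shares were 5.10% and 4.41%, so it was among the fastest there too. At a constant rate over the first 6 h, these values correspond to a time of 1.71 h for the signal to drop to 50% in control and 3.25 h in CNOT3KD MEFs. Between 6 and 12 h the control signal stayed at 114% of its 6 h level, whereas the CNOT3KD signal went on to 67.3%. The fraction left was 3.17 times that of control at 6 h and 1.87 times at 12 h. The 2 remaining *Zfp36l2* probe sets were dim and did not share a direction after Act. D, with signals between 7.85 and 47.7.

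*Zfp36l1*, the relative whose protein was tested in the study, declined less in both cultures. Its signals were 2189, 1091 and 1319 in control MEFs and 2357, 1725 and 1597 in CNOT3KD MEFs at 0, 6 and 12 h. The cultures differed by 1.08-fold at 0 h, and the CNOT3KD signal was 1.58-fold higher at 6 h and 1.21-fold higher at 12 h. This left 49.8% and 60.3% in control MEFs and 73.2% and 67.8% in CNOT3KD MEFs. A dimmer *Zfp36l1* probe set had the same order after Act. D, with 47.4% and 68.0% in control and 82.2% and 98.6% in CNOT3KD MEFs, but was 1.22-fold lower in CNOT3KD MEFs at 0 h. *Zfp36l1* was the only gene of the 9 whose brightest probe set was higher in CNOT3KD MEFs at 0 h, and this reversed, to a log2 value of −0.09, with the median over its probe sets.

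*Zfp36* itself, which encodes TTP and has 1 probe set, took yet another course. Its signals were 523, 354 and 567 in control MEFs and 391, 291 and 237 in CNOT3KD MEFs. The CNOT3KD signal was lower at every time, by 1.34-fold at 0 h, 1.22-fold at 6 h and 2.39-fold at 12 h. At 6 h the fractions left were close, at 67.7% in control and 74.4% in CNOT3KD MEFs. At 12 h they were 108% and 60.6%, since the control signal was higher at 12 h than at 6 h and the CNOT3KD signal was lower. The 3 genes of the TTP family therefore had different time courses in the same arrays.

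**Figure D1:**
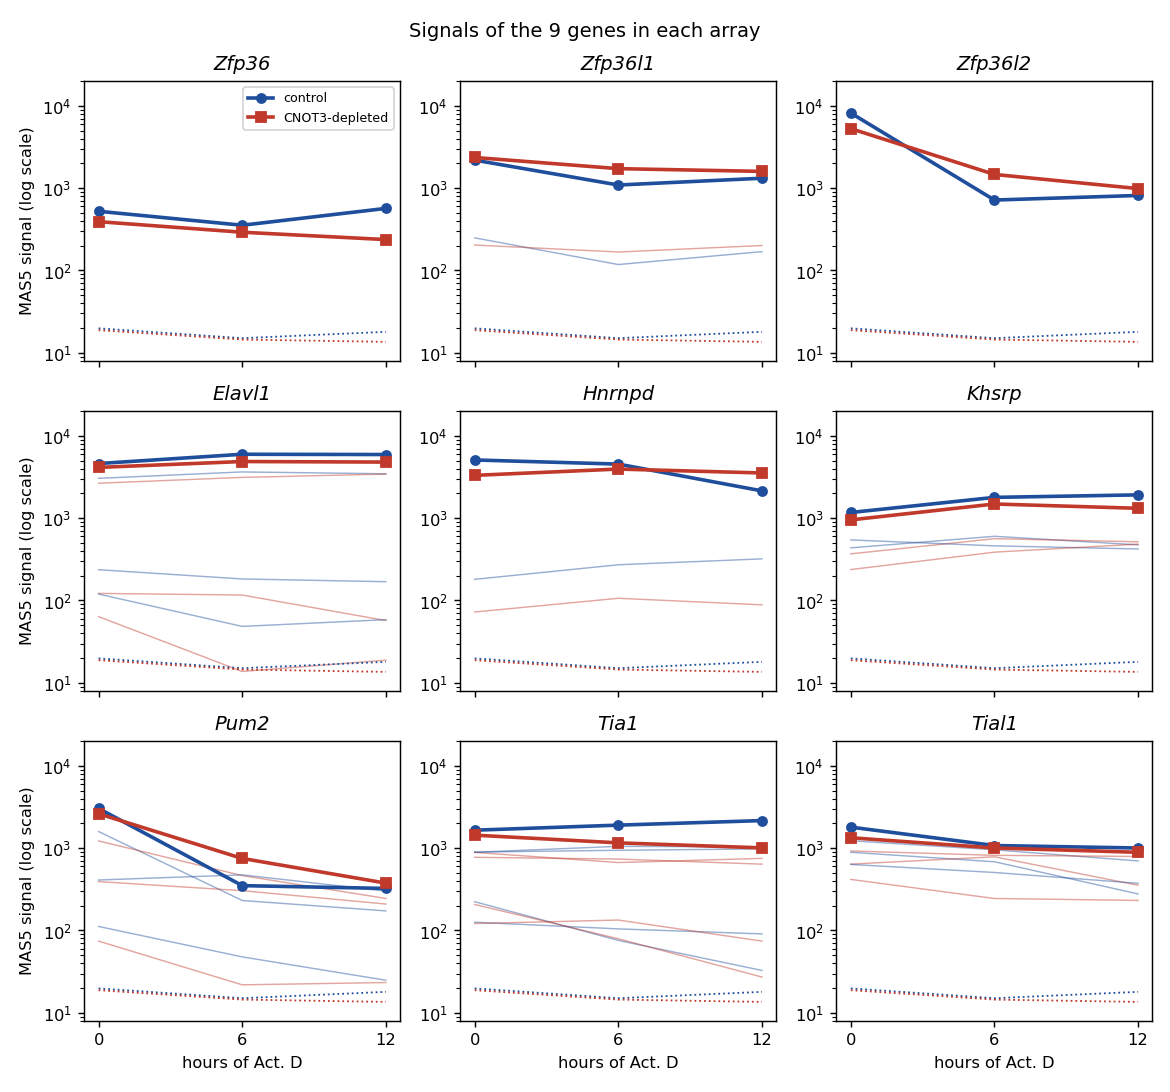
MAS5 signals (log scale) of the 9 genes against hours of Act. D, with control MEFs as blue circles and CNOT3KD MEFs as red squares, 1 array per point. Thick lines are the brightest probe set of a gene, thin lines those of its further probe sets that reached the median signal, and dotted lines the 25th percentile of each array. The thick lines of the cultures cross between 0 and 6 h for Zfp36l2 and Pum2 and between 6 and 12 h for Hnrnpd.

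*Pum2*, which encodes a Pumilio repressor, also kept little of its signal in both cultures at its brightest probe set, and more in CNOT3KD than in control MEFs. Its signals were 3040, 351 and 324 in control MEFs and 2618, 751 and 376 in CNOT3KD MEFs. The signal left was 11.5% and 10.7% in control and 28.7% and 14.4% in CNOT3KD MEFs, a fraction 2.48 times that of control at 6 h and 1.35 times at 12 h. At a constant rate over the first 6 h, the time for the signal to drop to 50% would be 1.93 h in control and 3.33 h in CNOT3KD MEFs. A second bright probe set, built from the same transcript record, gave 14.5% and 10.9% in control and 37.9% and 20.04% in CNOT3KD MEFs. Another from this record kept much more, with 116% and 73.2% in control and 77.6% and 53.4% in CNOT3KD MEFs, and had the opposite order of the cultures. The fourth, with a control signal of 112 at 0 h, kept 42.7% and 22.2% in control against 29.4% and 31.4%. The probe sets of *Pum2* thus did not agree on how much mRNA remained, and the sources used here do not give which transcript forms they detect.

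*Hnrnpd*, which encodes the decay-promoting factor AUF1, was lower in CNOT3KD MEFs at 0 h and higher at 12 h. Its signals were 5090, 4536 and 2145 in control MEFs and 3310, 3949 and 3538 in CNOT3KD MEFs. The control signal was the higher by 1.54-fold at 0 h, while the CNOT3KD signal was 1.65-fold higher at 12 h. Control MEFs kept 89.1% and 42.1% of the signal, against 119% and 107% in CNOT3KD MEFs, so that the fraction left was 1.34 times that of control at 6 h and 2.54 times at 12 h. A dimmer *Hnrnpd* probe set was also lower in CNOT3KD MEFs at 0 h, with 181 and 72.4, but did not share the later order. It kept 150% and 177% in control and 147% and 122% in CNOT3KD MEFs. The third *Hnrnpd* probe set was at the lowest possible signal of 1 in CNOT3KD MEFs at 0 and 12 h and gives no usable ratio.

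*Khsrp*, which encodes KSRP, did not decline relative to other mRNAs in either culture at its brightest probe set. Its signals were 1172, 1788 and 1918 in control MEFs and 953, 1486 and 1317 in CNOT3KD MEFs. The signal left was 153% and 164% in control and 156% and 138% in CNOT3KD MEFs. Among all genes at or above the median, 98.5% had a smaller fraction left in CNOT3KD MEFs at 6 h. The brightest probe set and another with 138% and 109% in control and 153% and 140% in CNOT3KD MEFs carry the suffix that marks probes shared with other transcripts. The probe set without that suffix stood apart. It had 544, 461 and 422 in control MEFs and 237, 386 and 484 in CNOT3KD MEFs, and was 2.29-fold lower in CNOT3KD MEFs at 0 h. The fraction left at this probe set was 1.92 times that of control at 6 h and 2.63 times at 12 h, and the smaller of these ratios was the highest among the 26 probe sets of the 9 genes at or above the median.

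*Elavl1*, which encodes HuR, kept over 100% of its signal in both cultures at its 2 brightest probe sets but not at 2 dimmer ones. Its brightest signals were 4607, 5973 and 5927 in control MEFs and 4135, 4875 and 4799 in CNOT3KD MEFs, and the cultures kept the same order at every time. The signal left was 130% and 129% in control and 118% and 116% in CNOT3KD MEFs. The next brightest probe set gave 120% and 114% in control against 118% and 129%. At 0 h these were 1.11-fold and 1.15-fold lower in CNOT3KD MEFs, whereas the dimmer pair were 1.94-fold and 1.88-fold lower. The first of this pair kept 77.2% and 71.5% in control against 95.5% and 46.8% in CNOT3KD MEFs. The other kept 40.5% and 48.9% against at most 22.8% and then 29.6%, and was near background in CNOT3KD MEFs at 6 h.

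*Tia1* kept less of its signal in CNOT3KD than in control MEFs at its 3 brightest probe sets, but 2 dimmer ones differed. Its signals were 1654, 1905 and 2164 in control MEFs and 1439, 1160 and 1008 in CNOT3KD MEFs. The cultures differed by 1.15-fold at 0 h, 1.64-fold at 6 h and 2.15-fold at 12 h, with control the higher at each time. The signal left was 115% and 131% in control and 80.6% and 70.1% in CNOT3KD MEFs. A pair of probe sets from the same transcript record had this order too, with 118% and 116% against 75.3% and 84.6%, and with 105% and 109% against 95.2% and 82.5%. A dimmer probe set from another record kept 82.9% and 72.1% in control against 110% and 61.1% in CNOT3KD MEFs, so the order of the cultures was the opposite at 6 h. Another dimmer one declined alike in both cultures, to 33.9% and 14.6% in control and 38.3% and 13.1% in CNOT3KD MEFs. The 14 fibroblast markers had a median signal left of 148% and 175% in control against 104% and 114% in CNOT3KD MEFs. That is the same order as at the brightest *Tia1* probe set, with *Pdgfra* and *Pdgfrb* in the opposite order.

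*Tial1*, which encodes the related protein TIAR, had signals of 1801, 1077 and 1005 in control MEFs and 1338, 1005 and 891 in CNOT3KD MEFs. It was 1.35-fold lower in CNOT3KD MEFs at 0 h and only 1.07-fold and 1.13-fold lower at 6 and 12 h. The signal left was 59.8% and 55.8% in control and 75.1% and 66.6% in CNOT3KD MEFs. The log2 stabilization, which is the log2 ratio of the CNOT3KD to the control fraction left averaged over 6 and 12 h, was between −0.26 and 0.75 over its 4 probe sets at or above the median. All 4 were lower in CNOT3KD MEFs at 0 h. *Tia1* and *Tial1* had a log2 stabilization of −0.71 and 0.29 at their brightest probe sets. With arrays scaled to their ribosomal protein signals these values were −0.20 and 0.80.

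**Figure D2:**
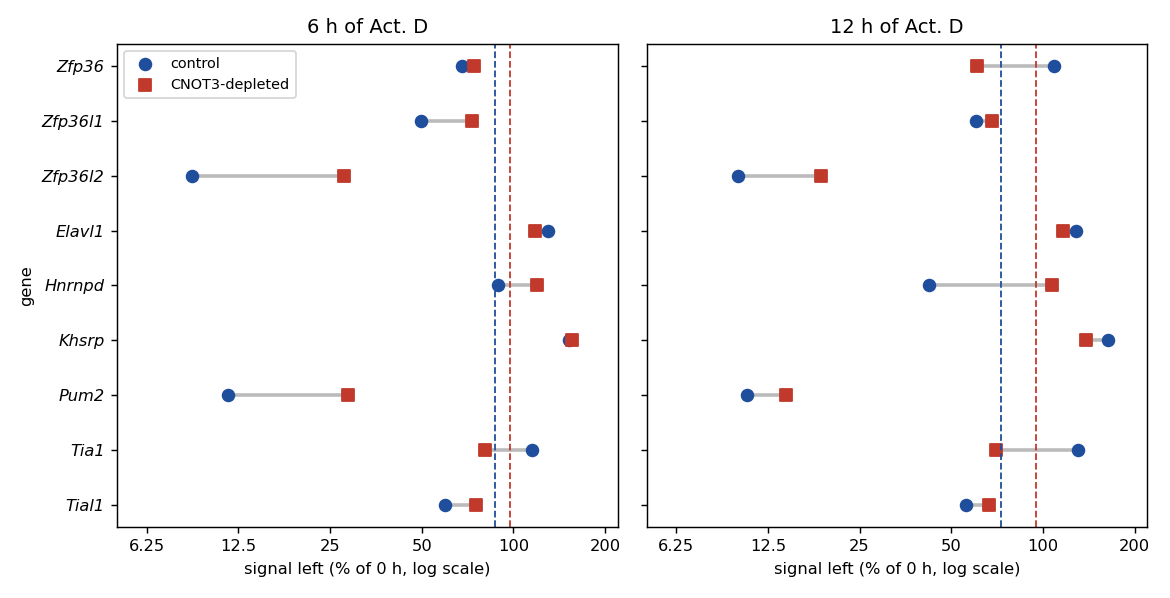
Percent of the 0 h signal that was left (log scale) after 6 h (left panel) and 12 h (right panel) in Act. D for the brightest probe set of each gene in control (blue circles) and CNOT3KD MEFs (red squares), 1 array per point, with dashed lines at the medians of all 11062 genes at or above the median signal. Zfp36l2 and Pum2 lie far to the left in both cultures, and Tia1 has the CNOT3KD point to the left of the control point at both times.

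Across the 9 genes, 8 had a lower signal in CNOT3KD than in control MEFs at 0 h. Of the 11062 genes at or above the median signal, 41.7% were lower by any size. The ratios of CNOT3KD to control ran from 0.646 for *Zfp36l2* to 1.08 for *Zfp36l1*. The median log2 ratio was −0.30 for the 9 genes and 0.08 for all genes. All 8 stayed below control with the 3 other scalings of the arrays, and none of the 9 changed side except *Zfp36l1*, as given above. Some came close to control with ribosomal protein scaling, at log2 values of −0.03 for *Elavl1*, −0.08 for *Tia1* and −0.09 for *Pum2*. Median and ribosomal protein scaling shift all genes of an array alike. The probe sets of 1 gene are not independent, and 25 of the 26 at or above the median were lower in CNOT3KD MEFs, against 48.3% of all 19644 such probe sets. By the limit of 1.5-fold, 2 genes were lower, *Zfp36l2* and *Hnrnpd*, where the share among all genes was 6.77%. None was more than 1.5-fold higher, against 12.4% of all genes. Both lower genes lay just past the limit, at 1.55-fold and 1.54-fold, and neither passed it when arrays were scaled to their median or to their ribosomal protein signals. The next gene below the limit was *Tial1*, at 1.35-fold. Counted over the 26 probe sets, 8 were more than 1.5-fold lower, against 9.92% of all such probe sets, 1 each of *Zfp36l2*, *Khsrp*, *Pum2* and *Tial1* and 2 each of *Hnrnpd* and *Elavl1*.

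A gene was counted as stabilized where its CNOT3KD signal at 6 h was between 0.5 and 2.0 times that at 0 h and its fraction left reached 2.0 times the control fraction at both times. None of the 9 genes and none of the 26 probe sets met this rule, against 10.6% of all genes and 9.69% of all probe sets at or above the median. None met it with the cultures exchanged, against 0.479%. With no limit on the CNOT3KD ratio, a change made after seeing that *Zfp36l2* and *Pum2* lay under it, still none of the 9 qualified, against 13% of all genes. Both had a fraction left over 2.0 times that of control at 6 h but not at 12 h, and *Hnrnpd* at 12 h but not at 6 h. The mean log2 stabilization was 1.28 for *Zfp36l2*, 0.88 for *Hnrnpd*, 0.87 for *Pum2*, 0.36 for *Zfp36l1*, 0.29 for *Tial1*, −0.11 for *Khsrp*, −0.14 for *Elavl1*, −0.35 for *Zfp36* and −0.71 for *Tia1*. The median of all genes was 0.13. Other scalings moved that median by as much as 0.51, with ribosomal proteins as the reference. The values of *Zfp36*, *Elavl1* and *Khsrp* changed sign under some settings. Relative to the median of all genes, *Zfp36l2* was higher by 1.15 and *Tia1* was at −0.84, and 84.6% and 7.96% of all genes had a lower stabilization. In control MEFs 2 of the 9 genes, *Zfp36l2* and *Pum2*, kept at most 25% at 6 h, against 13.4% of all genes. In CNOT3KD MEFs none did at 6 h, against 4.38%. At 12 h these 2 genes were at or under 25% in both cultures, where the shares of all genes were 19.9% and 6.68%.

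**Figure D3:**
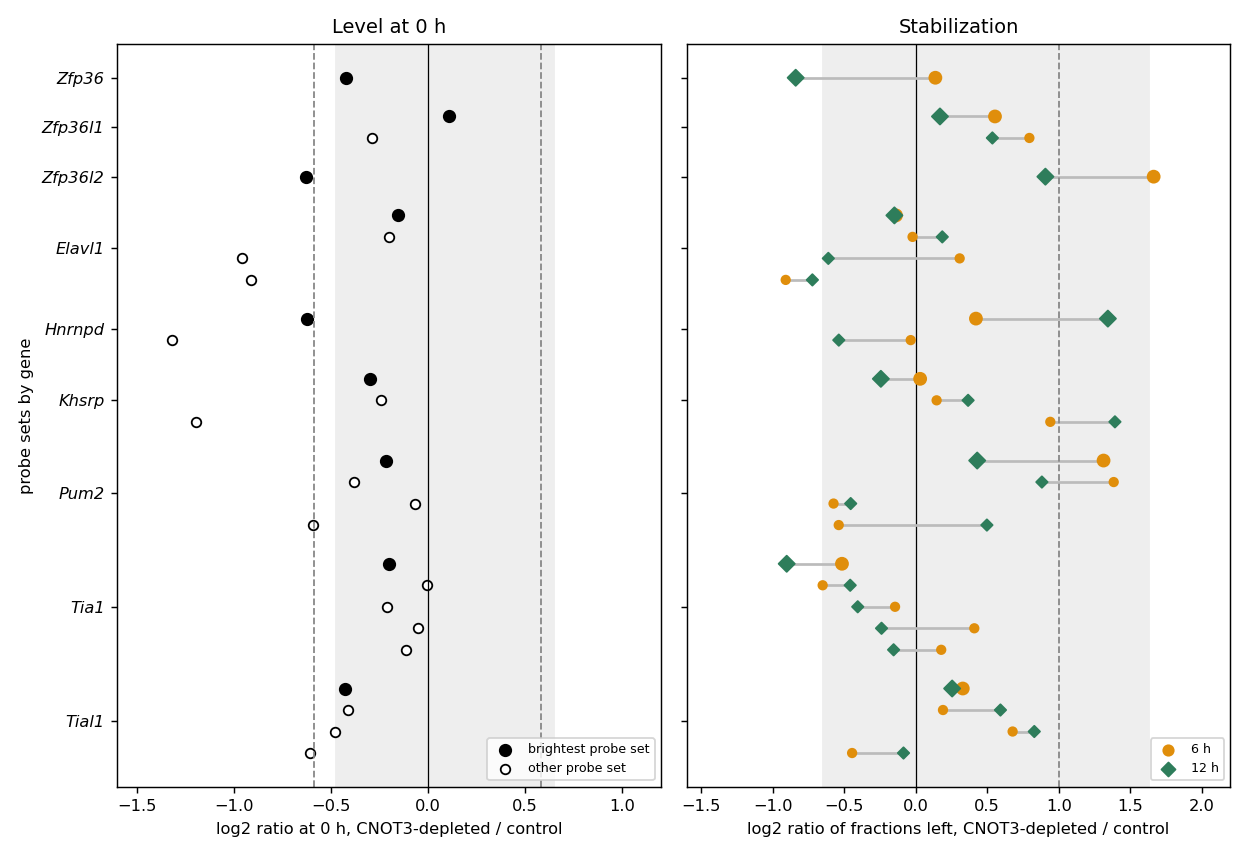
Log2 ratio of CNOT3KD to control MEFs at 0 h (left) and of the fractions left at 6 h (orange circles) and 12 h (green diamonds) of Act. D (right) for all 26 probe sets that reached the median signal, 1 array per condition. Grey bands span the 10th to 90th percentiles of all 11062 genes (at right, of the mean of both times), dashed lines mark 1.5-fold (left) and 2-fold (right), and larger or filled points are the brightest probe sets. All but 1 of the points at left lie below 0, and no probe set has both points at right beyond 2-fold.

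The genes with the time courses most like each member were found by the root mean square difference in log2 signal relative to control 0 h over the other 5 arrays. For *Zfp36l2* these were *Sos2* and *Fastkd5*, at a difference of 0.14 and 0.15, and for *Pum2* they were *Nr2c2* and *Morc2a*, at 0.10 and 0.12. *Sos2* kept 9.10% and 9.31% in control and 32.9% and 20.7% in CNOT3KD MEFs. For *Zfp36* they were *Pvt1* and *Ccnl2*, at 0.11 and 0.12, and for *Zfp36l1* they were *Inpp4a* and *Entpd6*, both at 0.11. *Hnrnpd* was closest to *Tpx2* and *Rpa2*, at 0.09 and 0.10, which kept 46.4% and 47.8% in control at 12 h. *Elavl1* was closest to *Bzw2* and *Cstf2*, at 0.04 and 0.05, *Khsrp* to *Ei24* and *Mettl9*, both at 0.08, *Tia1* to *Adcy6* and *1600020E01Rik*, both at 0.09, and *Tial1* to *Myo1h* and *St3gal4*, at 0.10 and 0.13. The number of genes within 0.25 was 5 for *Zfp36l2*, 9 for *Pum2* and 21 for *Zfp36*, the smallest numbers of the 9 genes. It was 73 for *Hnrnpd*, 87 for *Tial1*, 117 for *Zfp36l1* and 164 for *Tia1*. The largest numbers were 964 for *Elavl1* and 836 for *Khsrp*.

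A wider list of proteins that bind 3′ untranslated regions had 37 genes at or above the median signal, 8 below it and 5 of 50 without a probe set. Of the 37, 2 exceeded control by more than 1.5-fold at 0 h (*Fxr1* and *Rbm38*), 2 lay below it by more than 1.5-fold (*Hnrnpa0* and *Syncrip*), and none was stabilized. These counts are 5.41%, 5.41% and 0% of the list, against 12.4%, 6.77% and 10.6% of all genes. Their median signal left was 108% at 12 h in control and 102% in CNOT3KD MEFs, against 72.8% and 95.1% for all genes. *Hnrnpa0*, whose protein binds AU-rich elements, had 7010 and 4320 at 0 h and kept 179% and 223% in control against 111% and 114% in CNOT3KD MEFs. *Syncrip*, an hnRNP gene, had 2809 and 1827 at 0 h. *Rbm38*, which encodes an RNA-binding protein induced by p53, had 132 and 212 at 0 h and kept at most 11.4% and then 25.5% in control, where it was near background at 6 h, against 52.0% and 31.1%. *Pcbp1*, a poly(C)-binding protein gene, kept 59.4% and 28.7% in control and 99.2% and 98.3% in CNOT3KD MEFs. *Samd4*, which encodes a Smaug homologue that recruits CCR4-NOT, kept 57.2% and 26.1% against 88.6% and 69.0%.

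The list of kinases, phosphatases and 14-3-3 proteins that act on TTP had 28 genes, of which 24 had a probe set, all at or above the median signal. Of these, 4 were stabilized, which were *Mapk14*, *Map2k6*, *Ppp2ca* and *Sfn*, or 16.7% against 10.6% of all genes. At 0 h, 2 were more than 1.5-fold higher (*Mapkapk3* and *Sfn*) and 2 more than 1.5-fold lower (*Mapk11* and *Rps6ka3*), each 8.33% of the list. *Mapk14* encodes p38, the kinase upstream of the one that phosphorylates TTP, and kept 25.8% and 22.7% in control and 68.4% and 49.4% in CNOT3KD MEFs. *Ppp2ca*, the catalytic subunit of the phosphatase that opposes it, had 9665 and 11170 at 0 h. It kept 45.3% and 9.17% in control against 99.1% and 97.7%. *Map2k6*, which encodes an activator of p38, was dim, with a 0 h signal of 86.5 in control and 74.7 in CNOT3KD MEFs, and kept 61.7% and 43.7% against 141% and 139%. *Mapkapk3*, a kinase gene downstream of p38, was 1.65-fold higher at 0 h and kept 41.1% and 20.9% against 66.9% and 59.4%. *Sfn*, a 14-3-3 gene, had only 88.8 and 138 at 0 h and was near background in control at 12 h. *Rps6ka3*, a ribosomal S6 kinase gene, was 1.75-fold lower at 0 h.

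A list of 50 transcripts known or thought to be AU-rich was also read, of which 37 were at or above the median signal and 10 were below it. Whether the AU-rich element binding proteins act on them in these cells was not tested. The list was chosen with earlier results of these data known. At 0 h, 11 of the 37 were more than 1.5-fold lower in CNOT3KD MEFs, or 29.7% against 6.77% of all genes, and 3 were more than 1.5-fold higher, or 8.11% against 12.4%. *Il6*, a cytokine gene, had 199 and 68.0, *Bcl2*, a survival gene, had 542 and 248, and *Egr1*, an early response transcription factor gene, had 5018 and 2786. *Ccl7*, a chemokine gene, had 779 and 2144. After Act. D, 2 of the 37 were stabilized, or 5.41% against 10.6% of all genes. These were *Ccna2*, the cyclin A2 gene, which kept 27.1% and 13.0% in control against 128% and 119%, and *Cdkn1a*, the p21 gene, which kept 47.5% and 24.6% against 95.1% and 96.0%. *Fosl1*, an AP-1 gene, kept 6.93% and 7.98% against 41.8% and 42.6%, and *Mcl1*, a survival gene, kept 8.11% and 10.5% against 33.2% and 24.1%. With no limit on the CNOT3KD ratio, 4 of the 37 were stabilized, where the share of all genes was 13%.

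Most of the AU-rich mRNAs that disappeared quickly did so in both cultures. At 6 h, 11 of the 37 kept at most 25% in control MEFs and 9 in CNOT3KD MEFs, and 8 were the same genes, *Dusp1*, *Dusp6*, *Egr1*, *Jun*, *Myc*, *Nfkbia*, *Tnfaip3* and *Vegfa*. Of all 1477 genes at or under 25% in control at 6 h, 386, or 26.1%, were so in CNOT3KD MEFs. At 12 h the numbers for the list were 10 and 11, with 7 shared, against 549 of 2204 for all genes. *Dusp1*, a phosphatase gene that restrains p38, kept 3.60% and 5.07% in control and 3.74% and 3.83% in CNOT3KD MEFs. *Myc* kept 6.09% and 11.6% against 7.14% and 9.82%, and *Nfkbia*, an inhibitor of NF-kB, kept 15.8% at 6 h against 11.3%. *Creb3*, a gene whose 3′ untranslated region the study tested with Zfp36L1, was instead 1.62-fold higher at 0 h at its brightest probe set. There it kept 44.9% and 30.3% in control against 103% and 104%. Another probe set gave 42.6% and 22.3% against 107% and 106%, and a further one 75.8% and 59.7% against 104% and 118%. The dimmest was 1.06-fold lower at 0 h and kept 83.5% and 155% against 101% and 137%.

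**Figure D4:**
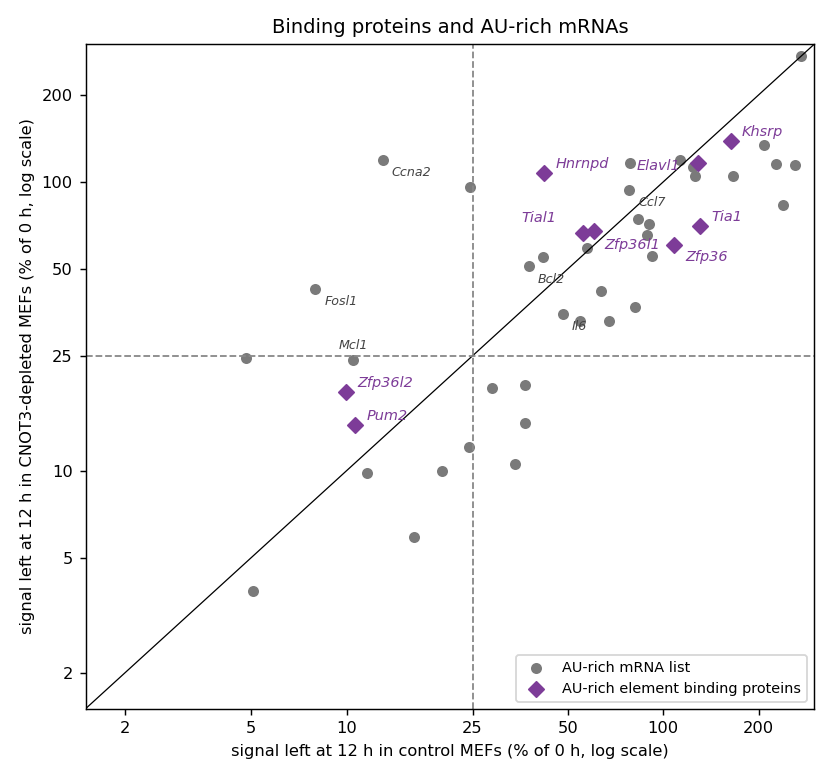
Percent of the 0 h signal that was left after 12 h in Act. D, in control (horizontal) and CNOT3KD MEFs (vertical), both on log scales, for the 9 binding protein genes (purple diamonds) and 37 AU-rich mRNAs at or above the median signal (grey circles), 1 array per condition. The solid line marks equal fractions and dashed lines 25%. Hnrnpd lies above the line and Tia1 and Zfp36 below it, and 7 AU-rich mRNAs lie in the lower left, at or under 25% in both cultures, beside Zfp36l2 and Pum2.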

How the data were processed

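Biotin-labelled cRNA from total RNA was hybridized by the authors to an Affymetrix whole-genome mouse array. The values as deposited are intensity on a linear scale, 1 MAS5 signal for each probe set (MAS5 version not given in the sources used here). Each array has a mean without the outer 2% of between 494 and 497. Probe sets with several symbols (932) or none (9160) were left out. All 33 probe sets matched RefSeq symbols by gene identifier. Signals under 1 would be set to 1, and 171 to 458 per array lay at that value. The 25th percentile was 13.6 to 19.8 over the arrays, and signals under it counted as near background and gave bounds. Counts were made in Python 3.11.15 with pandas 2.3.3 and tested on simulated data. No test was run with 1 array per condition, and so few arrays limit the precision. Members and lists (other 3′ untranslated region binding proteins, regulators of TTP, AU-rich mRNAs and cell markers) were chosen with earlier results of these data known. Named were all members, their 2 nearest genes, the 3 of each list with the largest ratio at 0 h and the 3 with the largest stabilization, and *Cnot3* and *Creb3*. Others were named after their values were seen. Alternatives were a floor of 16, 3 scalings, the median over probe sets, other fold limits and single times.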

Additional observations from a re-analysis of the deposited data

Results flagged for a closer look

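*Hnrnpd*, with a mean log2 stabilization of 0.88, was below its 0 h signal at both times in control MEFs and above it at both times in CNOT3KD MEFs. *Tia1*, at −0.71, was above its 0 h signal at both times in control MEFs and below it at both times in CNOT3KD MEFs. The difference between the cultures was not tested for either gene, since each condition was 1 array, and the dimmer *Hnrnpd* probe set did not share the pattern. Neither did 2 dimmer *Tia1* probe sets, which kept 82.9% and 72.1% in control against 110% and 61.1% in CNOT3KD MEFs, and 33.9% and 14.6% against 38.3% and 13.1%. The sides of the 0 h signal also depend on the scaling of the arrays. The fibroblast markers had a median of 148% and 175% left in control MEFs. With ribosomal protein scaling the log2 stabilization was 1.39 for *Hnrnpd* and −0.20 for *Tia1*.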

How the results depend on the processing

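No paired analysis was possible because each condition was 1 array, and no replicate could be left out. Of 83 counts recomputed, 62 stayed within 1.5 times the reported one. The members more than 1.5-fold lower at 0 h were 0 with median scaling, 0 with ribosomal protein scaling and 0 at 2-fold. For the other binding proteins, the number higher was 1 with the median over probe sets and 0 at 2-fold, the number lower was 1 with median scaling, 0 with ribosomal protein scaling and 0 at 2-fold, and the number stabilized was 1 with quantile normalization, 4 with ribosomal protein scaling and 4 at 1.5-fold. For the regulators of TTP, the number lower was 1 with median scaling, 1 with quantile normalization, 1 with ribosomal protein scaling and 0 at 2-fold, the number higher was 0 at 2-fold, and the number stabilized was 8 with ribosomal protein scaling and 8 at 1.5-fold. For AU-rich mRNAs, 1 was higher and 3 were lower at 2-fold, and 4 were stabilized with no ratio limit, an alternative chosen after seeing the data. Fewer genes pass a stricter fold by construction. Median and ribosomal protein scaling moved all genes alike, at 0 h by log2 values of 0.09 and 0.13. For quantile normalization the cause was not tested. Of 108 recomputed member values, 107 moved by less than 1.5-fold and 1 by more, the 0 h value of *Hnrnpd*, at −1.32 with the median over its probe sets. With ribosomal protein scaling the stabilization of *Zfp36*, *Elavl1* and *Khsrp* was 0.16, 0.37 and 0.41. It was 0.03 for *Elavl1* with quantile normalization and 0.26 for *Khsrp* with the median over probe sets. With 6 h alone it was 0.14 for *Zfp36* and 0.03 for *Khsrp*.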

Other observations

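*Fos*, an early response gene of the AU-rich list, differed from its relative *Fosl1* in that its signal left was 112% and 273% in control and 294% and 272% in CNOT3KD MEFs. Its relative *Fosb*, which was below the median signal, kept 123% and 112% in control. In CNOT3KD MEFs *Fosb* kept 100% at 6 h and was near background at 12 h. *Zc3h12a*, which encodes the endonuclease Regnase-1, had 73.1 in control and 54.1 in CNOT3KD MEFs at 0 h. The geometric mean of these was below the median signal.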
